A study of Bos taurus with 16 samples.

Results

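The mitochondrial respiratory chain was followed through the weeks after calving in biopsies of the endometrium, the inner layer of the uterus, from 4 fertile cows. Members are the array probes, control spots left out, whose gene name in the scanner files begins as those of the subunits of complexes I to V do: NDUFA, NDUFB, NDUFC, NDUFS or NDUFV with a number, SDHA to SDHD, UQCR, COX4 to COX8 and ATP5 with a letter. This rule used no measured value. It found 203 of 43653 probes, which carry 83 gene names. By the prefix of the name alone, 38 of these genes with 79 probes were assigned to complex I, NDUFA4 and NDUFA4L2 among them. Whether each gene's protein sits in the complex of its name was not checked. Complex II was assigned 4 genes with 10 probes and complex III 8 genes with 21 probes. Complex IV was assigned 16 genes with 43 probes and complex V 15 genes with 46 probes. The other 2 names with 4 probes, COX4NB and ATP5S, match the pattern but are named EMC8 and DMAC2L today and encode no subunit. They are kept as members and are set apart in what follows. The subunit genes are nuclear genes. The 184 subunit probes that the files place on the genome lie on 23 chromosomes.

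Every cow was biopsied in the uterine horns at nominal days 10, 30, 50 and 100 after parturition. Per the labels the first biopsies were taken on days 9 to 10, the second on days 29 to 30, the third on days 49 to 51 and the last on days 99 to 100. Each time is represented by 4 one-colour arrays, 1 per cow, and all 4 arrays of a cow share a slide, so that differences between times are taken within cow and slide. The labels give no breed, age or treatment. A biopsy holds epithelium, stroma, vessels, immune cells and a varying amount of smooth muscle, and in such bulk tissue fewer cells of a type cannot be told apart from less RNA per cell. Markers of epithelium and stroma were measured in the tissue: 14 of 15 epithelial and 9 of 10 stromal markers had a tested probe.

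The respiratory chain burns reducing power made from nutrients and uses the energy to make ATP. Complex I (NADH dehydrogenase) and complex II (succinate dehydrogenase) feed electrons into coenzyme Q, complex III (the cytochrome bc1 complex) passes them to cytochrome c, complex IV (cytochrome c oxidase) gives them to oxygen, and complex V (ATP synthase) makes ATP from the proton gradient that complexes I, III and IV build. Some complex IV subunits come in alternative isoforms, of which one is made in most tissues and the other mainly in muscle, lung, testis or under low oxygen. After parturition the bovine endometrium sheds tissue, is cleared by inflammatory cells, regrows its epithelium and returns to a cycling state.

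The array reads each gene through 1 or more 60-base probes, and probes at different places on a transcript did not always give like values. Probes of a core subunit of complex III and of an isoform in complex IV are shown because the results turn on these genes, 5′ to 3′ as deposited, each with at least 1 reading frame free of stop codons. For UQCRC2, 2 probes from different stretches gave like results. For COX4I2, the isoform of COX4I1, capitals mark the 6 bases that form the longest run shared with any COX4I1 probe.
UQCRC2, chr25:20770631-20770912: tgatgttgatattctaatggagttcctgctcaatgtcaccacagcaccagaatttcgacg
UQCRC2, chr25:20777649-20777708: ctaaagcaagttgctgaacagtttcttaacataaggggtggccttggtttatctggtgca
COX4I2, chr13:62060174-62061484: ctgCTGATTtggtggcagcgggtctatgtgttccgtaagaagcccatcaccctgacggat
Coordinates are on build HGSC Btau_3.1. UQCRC2 and COX4I2 lie on the plus strand, per the order of the deposited coordinates. A probe whose 60 bases span more than 60 bases of genome is printed with the outer ends of its match.

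A level below is the log2 processed signal of a probe minus the percentile 75 of its array, so that 0 is the brightness of that percentile and 1 unit is a 2-fold change. A gene is given by its probe with the highest mean signal, and levels of different probes are not set against each other. Most subunits were bright: 191 of the 203 probes, for 82 of the 83 genes, passed the filter of signal well above background on 4 or more arrays and were tested, and 183 passed it on all 16. The 12 probes not tested include both probes of COX6A2, the heart and skeletal muscle isoform of COX6A1, which were well above background on 0 and 2 arrays. COX7B2 has no probe of that name among the members. No spot was saturated, the median signal of an array ran from 51.1 to 154, and arrays of the same day correlated across probes with r between 0.832 and 0.978.

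No subunit gene passed the test for a change with time. In the limma fit with terms for time and cow and Benjamini-Hochberg adjustment over 33182 probes, 0 of 191 member probes had an adjusted p under 0.05, here a call, in any of the 6 comparisons of times or in the F test over all times. Over all probes the calls made up 0.419% for day 30 against day 10, 1.64% for day 50 against day 10, 4.60% for day 100 against day 10 and 1.03% in the F test, and 0% in each comparison among days 30, 50 and 100. At an unadjusted p under 0.05 the member probes numbered 5 of 191 for day 30 against day 10 (all probes 14.0%) and 10 for day 50 against day 10 (all probes 18.6%). They numbered 18 for day 100 against day 10 (25.8%), of which 15 were higher at day 100 (10.9% of all probes) and 3 lower (14.8%). The remaining comparisons gave 4 for day 50 against day 30 (9.34%), 2 for day 100 against day 30 (12.8%), 0 for day 100 against day 50 (3.13%) and 8 in the F test (18.9%). The share of members at that level was below the share of all probes in every comparison. Member and all-probe counts with groups of arrays that do not overlap were 11 of 191 and 8.50% for day 30 against day 10, 18 and 16.9% for day 50 against day 10, and 13 and 11.1% for day 100 against day 10. They were 5 and 7.60% for day 50 against day 30, 0 and 3.02% for day 100 against day 30, and 0 and 2.13% for day 100 against day 50.

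Through the brightest probe of each gene, the intervals bound most member genes to less than a 2-fold change. Of the 82 genes, the 95% interval of the difference lay wholly within 2-fold for 68 between day 30 and day 10, 72 between day 50 and day 10, and 66 between day 100 and day 10. As shares these are 82.9%, 87.8% and 80.5% of the genes, beside 37.7%, 36.9% and 32.4% of all tested probes. The shares are not matched for brightness: each gene is given by its brightest probe, while the tested probes include dim ones. A share at matched level was not computed. Other probes of a gene are not bounded by these intervals, and some gave unlike values, as described below. Smaller changes are not bounded for most genes, since the interval was within 1.5-fold for 27, 24 and 18 genes in the same comparisons. The median difference over the 82 genes was 0.04 for day 30 minus day 10, -0.06 for day 50 minus day 10 and 0.08 for day 100 minus day 10, beside medians over all probes of -0.01, -0.03 and -0.07. Within the cows, the median for day 100 minus day 10 was 0.38, -0.06, 0.14 and -0.10 in cows 1 to 4, so its sign differed between animals, and over all 82 genes it was 0.32 with median scaling and -0.01 after quantile normalization.

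**Figure D1:**
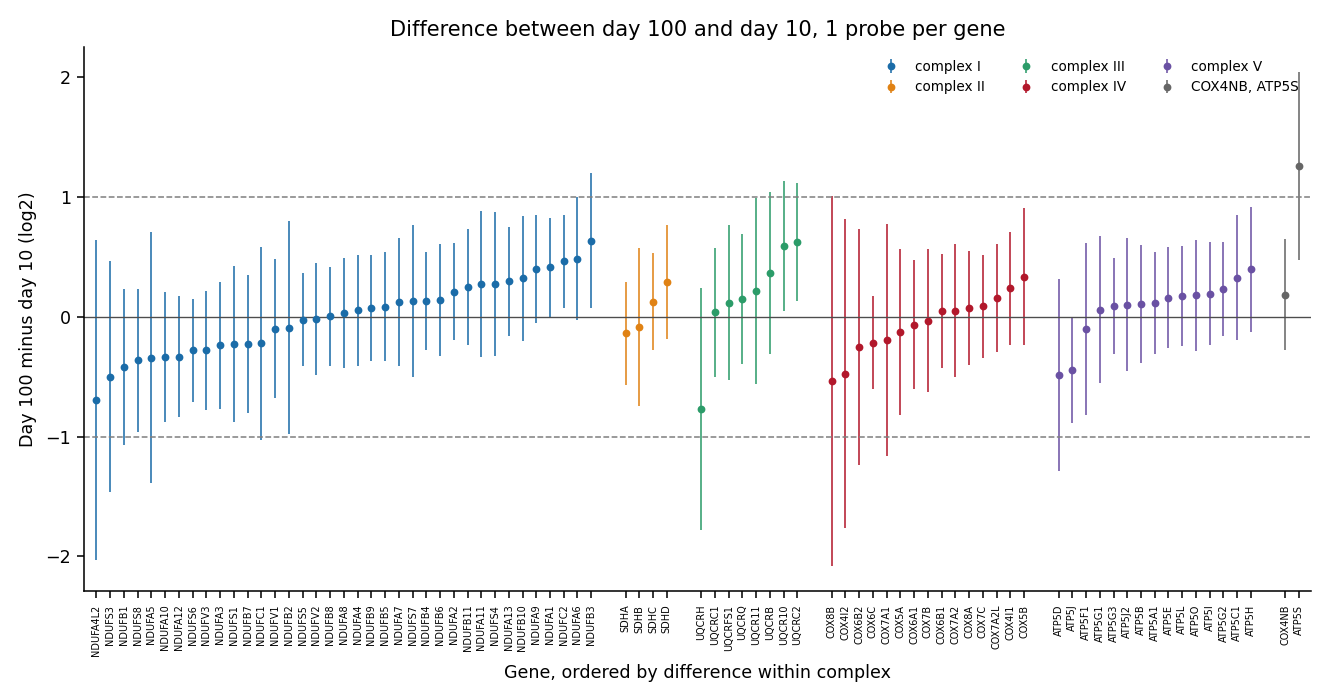
Difference in level between day 100 and day 10 (log2, later minus earlier) for 81 of the 82 tested genes, 1 probe each, grouped by complex and ordered within it. Points are limma estimates over 4 cows, bars are 95% intervals, and dashed lines mark a 2-fold change; most bars lie wholly between those lines and no gene shown passed the adjusted threshold.

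The subunits also varied little from array to array. The SD of a gene's level over the 16 arrays had a median of 0.30 over the 82 genes, against 0.61 over all tested probes. The 2829 tested probes within the middle range of the members' levels (2.28 to 4.06) that were well above background on all arrays had a median SD of 0.38. For 75 of the 82 genes the SD was below the median of all tested probes. The steadiest were ATP5G3, a subunit of the membrane ring of ATP synthase (SD 0.16), NDUFS5 (0.17) and NDUFA2 (0.18), both subunits of complex I; these 3 were picked after their values were seen. An SD above 0.5 was found in 10 genes. These include the tissue-restricted COX8B, NDUFA4L2, COX4I2, COX7A1 and COX6B2, and 3 whose probe lies at the edge of the array, UQCRH, NDUFS3 and NDUFA5, both groups described below.

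In several biopsies the 5 complexes lay on the same side of their means, and these shifts differed between cows at the same day. On each array, every gene was set against its own mean over the 16 arrays. Of the 80 subunit genes, 73 were above their own mean in cow 2 at day 30 and 3 in the same cow at day 50. In cow 1, 65 were above at day 100 and 17 at day 50. In cow 4, 62 were above at day 50 and 10 at day 100. In cow 3 the number was 43 at day 10, 22 at day 30, 51 at day 50 and 52 at day 100. The share of all tested probes above their own mean stayed between 45.0% and 56.5% on the 16 arrays.

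The medians of complexes I, II, III, IV and V, in that order, were 0.32, 0.51, 0.76, 0.55 and 0.15 in cow 1 at day 100 and 0.33, 0.10, 0.30, 0.20 and 0.43 in cow 2 at day 30. They were -0.33, -0.21, -0.19, -0.32 and -0.24 in cow 2 at day 50 and -0.28, -0.25, -0.35, -0.22 and -0.29 in cow 4 at day 100. All 5 complexes lay above their means in the first pair of biopsies and below them in the second pair. The smallest of these medians after quantile normalization were 0.00 for complex V in cow 1 at day 100 and 0.01 for complex II in cow 2 at day 30. The time means of the 80-gene median were -0.01 ± 0.12 at day 10, 0.03 ± 0.21 at day 30, -0.06 ± 0.19 at day 50 and 0.07 ± 0.26 at day 100 (SD, n = 4 cows). The SD between cows was larger than the distance of any time mean from 0. Lists of cell type markers moved on the same arrays. In cow 1 at day 100 the mean deviation was 2.57 for the 14 tested epithelial markers, -3.56 for 11 of 11 smooth muscle markers, -1.42 for 9 of 10 stromal and -2.09 for 5 of 6 pericyte markers. The same epithelial and smooth muscle values were -0.13 and 1.75 in cow 2 at day 30, 0.70 and 1.54 in cow 2 at day 50, -3.32 and 2.21 in cow 2 at day 100, and 0.59 and 0.15 in cow 4 at day 100. With the smooth muscle and epithelial values as covariates the count of member probes called was again 0 in every comparison. Over all probes that fit called 37, 267 and 2552 for days 30, 50 and 100 against day 10. The part of the marker values in the single-biopsy values was not tested.

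**Figure D2:**
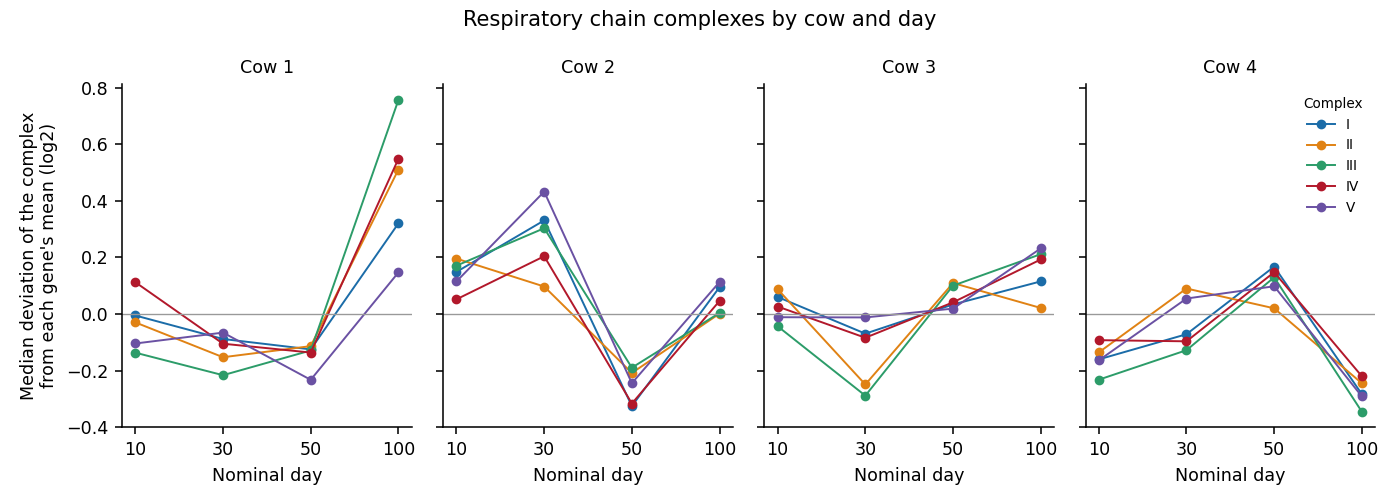
Median deviation of the genes of each complex from their own means over 16 arrays (log2, vertical axis) against nominal day, with a panel per cow and a line per complex. All 5 lines are highest at day 100 in cow 1 and lowest at day 50 in cow 2 and at day 100 in cow 4, and all but complex II (0.20 at day 10) peak at day 30 in cow 2.

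In complex I, the entry point for electrons from NADH, the core subunits named here had no called difference. NDUFS1, which carries iron-sulphur clusters, had levels of 2.23 ± 0.29 at day 10, 2.24 ± 0.43 at day 30, 1.97 ± 0.13 at day 50 and 2.00 ± 0.84 at day 100 (SD, n = 4). NDUFV1, which binds NADH, had 4.00 ± 0.26 at day 10, 3.85 ± 0.24 at day 30, 3.77 ± 0.20 at day 50 and 3.90 ± 0.58 at day 100. NDUFS1 differed between day 100 and day 10 by -0.23 (95% interval -0.88 to 0.42, adjusted p = 0.652). For NDUFV1 the difference was -0.10 (95% interval -0.68 to 0.48, adjusted p = 0.838) through its brightest probe. Another NDUFV1 probe gave unlike values, described below. Among all complex I genes, 21 of 38 had a positive and 17 a negative difference, with a median of 0.03 that was -0.04 both with normexp background correction and after quantile normalization.

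NDUFB3, NDUFB10 and NDUFS6, all accessory subunits, were among the complex I genes with the widest range of time means. NDUFB3 had levels of 2.16, 2.92, 2.33 and 1.53 at day 10, 2.55, 3.08, 2.60 and 2.91 at day 30, 2.47, 2.55, 2.56 and 2.57 at day 50 and 2.73, 2.93, 3.40 and 2.43 at day 100, cows 1 to 4 in order. All 4 cows were higher at day 100 than at day 10, by 0.64 (95% interval 0.07 to 1.20, adjusted p = 0.152), and the 2 groups overlap. NDUFB10 had 3.87 ± 0.36 at day 10, 4.37 ± 0.26 at day 30, 3.86 ± 0.07 at day 50 and 4.19 ± 0.41 at day 100, with a difference of 0.50 (95% interval -0.02 to 1.02, adjusted p = 0.373) for day 30 minus day 10 and all 4 cows higher. NDUFS6 had 1.76 ± 0.14 at day 10, 1.25 ± 0.19 at day 30, 1.38 ± 0.26 at day 50 and 1.48 ± 0.28 at day 100; all 4 cows were lower at day 30 than at day 10, with a difference of -0.51 (95% interval -0.94 to -0.08, adjusted p = 0.285). None of these passed the threshold.

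In complex II, which is also an enzyme of the citric acid cycle, all 4 genes were measured. The flavoprotein SDHA had 5.07 ± 0.16 at day 10, 4.70 ± 0.13 at day 30, 4.80 ± 0.14 at day 50 and 4.93 ± 0.31 at day 100 (SD, n = 4). The iron-sulphur subunit SDHB had 1.40 ± 0.48 at day 10, 1.36 ± 0.31 at day 30, 1.16 ± 0.37 at day 50 and 1.32 ± 0.32 at day 100. SDHA was lower at day 30 than at day 10 in 4 of 4 cows, with a difference of -0.37 (95% interval -0.80 to 0.06, adjusted p = 0.422), and the groups do not overlap. Over complex II, 4 of 10 probes had groups that do not overlap between day 30 and day 10, beside 8.50% of all probes, and none of the 10 was called. The membrane anchor SDHC had 3.92 ± 0.07 at day 10, 3.96 ± 0.12 at day 30, 4.02 ± 0.20 at day 50 and 4.05 ± 0.35 at day 100. The other anchor, SDHD, had 2.76 ± 0.18 at day 10, 2.88 ± 0.23 at day 30, 2.86 ± 0.11 at day 50 and 3.05 ± 0.33 at day 100. Between day 100 and day 10 the difference was -0.14 (95% interval -0.57 to 0.29, adjusted p = 0.684) for SDHA and -0.09 (95% interval -0.74 to 0.57, adjusted p = 0.879) for SDHB. The anchors gave 0.13 (95% interval -0.28 to 0.53, adjusted p = 0.692) for SDHC and 0.29 (95% interval -0.19 to 0.76, adjusted p = 0.422) for SDHD. Each of these 4 intervals lies within 2-fold.

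In complex III, UQCRC2 had the lowest adjusted p of all subunits for day 100 against day 10. UQCRC2, a core subunit on the matrix side, had levels of 3.46, 3.57, 3.48 and 3.31 at day 10, 3.61, 3.93, 3.57 and 3.60 at day 30, 3.87, 3.66, 3.98 and 3.64 at day 50 and 4.51, 3.66, 4.53 and 3.62 at day 100, cows 1 to 4 in order, through its brightest probe. Cows 1 and 3 at day 100 stood above all other arrays, and every day 100 value lay above every day 10 value. The difference was 0.62 (95% interval 0.13 to 1.11, adjusted p = 0.115) for this probe. The other 3 tested probes of UQCRC2 share no run of over 7 bases with it or each other and gave 0.92 (95% interval 0.35 to 1.50, adjusted p = 0.0636), 0.84 (95% interval 0.29 to 1.38, adjusted p = 0.0706) and 0.55 (95% interval 0.03 to 1.07, adjusted p = 0.173), with 4 of 4 cows higher for each. Without the day 100 array of cow 2, 3113 of all probes were called, against 1525 with all arrays. In that fit 2 of the UQCRC2 probes passed, with differences of 1.08 and 1.14 and limma adjusted p of 0.020 and 0.025. Without cow 2 altogether, where 1583 of all probes were called, 1 of these 2 passed, with a difference of 1.10 and an adjusted p of 0.048. Over the alternatives the adjusted p of these 2 probes reached 0.317 and 0.294.

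Its partner UQCRC1 had 3.85 ± 0.26 at day 10, 3.68 ± 0.27 at day 30, 3.74 ± 0.16 at day 50 and 3.89 ± 0.55 at day 100 (SD, n = 4) and a day 100 minus day 10 difference of 0.04 (95% interval -0.50 to 0.57, adjusted p = 0.942). UQCRFS1, the Rieske iron-sulphur protein, had 3.33 ± 0.17 at day 10, 3.29 ± 0.40 at day 30, 3.33 ± 0.39 at day 50 and 3.45 ± 0.41 at day 100, with 0.12 (95% interval -0.53 to 0.76, adjusted p = 0.828). UQCR10, a small accessory subunit, had levels of 4.55, 3.61, 4.62 and 3.97 at day 100, against 3.65, 3.69, 3.53 and 3.52 at day 10. The groups overlap through cow 2. It was higher in 3 of 4 cows, by 0.59 (95% interval 0.05 to 1.13, adjusted p = 0.163). Over the 8 complex III genes, 7 were higher at day 100 than at day 10, with a median of 0.18, and the 1 lower gene was UQCRH. Its probe lies at the edge of the array, which was dim in cow 4 at day 100. In cows 1 to 3 UQCRH read 4.37, 5.01 and 4.42 at day 100, against 4.90, 4.92 and 4.66 at day 10, so it was also lower in cows 1 and 3. After quantile normalization 5 of the 8 genes were higher and 3 lower.

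A further probe carries the name UQCRB but does not lie on the strand of that gene, and it is named here after its values were seen. The UQCRB probes at chr14:66195074-66195133 and chr14:66195038-66195097 lie on the plus strand. The further probe lies at chr14:66190538-66190597 on the minus strand, 4441 bases away, and was not named from a RefSeq transcript. Its levels were -0.87, -0.77, -1.31 and -0.0013 at day 10, -4.27, -1.01, -1.25 and 1.66 at day 30, 0.07, 0.80, 0.49 and 0.28 at day 50 and 0.16, 1.36, 2.94 and 1.33 at day 100. It differed by 2.67 (95% interval 0.92 to 4.41, adjusted p = 0.277) between day 100 and day 30, and by 2.18 (95% interval 0.44 to 3.93, adjusted p = 0.119) between day 100 and day 10. Between day 100 and day 10 it passed in limma without the day 30 array of cow 4 (adjusted p = 0.049, 2372 of all probes called). With probe position as a covariate, described below, the difference was 1.07 (adjusted p = 0.42), and the highest adjusted p over the alternatives was 0.475. Cow 1 at day 30 was the lowest array and cow 3 at day 100 the highest. The brightest plus-strand probe had a day 100 minus day 10 difference of 0.37 (95% interval -0.31 to 1.04, adjusted p = 0.474). Of the 83 genes, 6 have probes on both strands. In COX4I2, COX8A, NDUFA5 and NDUFB1 the probe on the other strand was well above background on 0 arrays. In COX7B the probe on the other strand was well above background on all 16 arrays, as were the 3 minus-strand probes of that gene.

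In complex IV, the oxidase itself, no common subunit had a called difference. COX4I1 had 5.32 ± 0.05 at day 10, 5.32 ± 0.23 at day 30, 5.18 ± 0.19 at day 50 and 5.55 ± 0.37 at day 100 (SD, n = 4), with a day 100 minus day 10 difference of 0.24 (95% interval -0.24 to 0.71, adjusted p = 0.508). COX5A had 3.00 ± 0.17 at day 10, 2.89 ± 0.37 at day 30, 2.86 ± 0.52 at day 50 and 2.87 ± 0.43 at day 100, with -0.13 (95% interval -0.82 to 0.57, adjusted p = 0.826). Of the 15 tested genes, 7 were higher and 8 lower at day 100 than at day 10, or 4 and 11 after quantile normalization and 12 and 3 after median scaling, and none of the 36 tested probes had an unadjusted p under 0.05 in that comparison. For the other common isoforms the same difference was -0.07 (95% interval -0.60 to 0.47, adjusted p = 0.885) for COX6A1 and 0.05 (95% interval -0.43 to 0.52, adjusted p = 0.91) for COX6B1. It was 0.05 (95% interval -0.51 to 0.61, adjusted p = 0.921) for COX7A2, -0.03 (95% interval -0.63 to 0.57, adjusted p = 0.954) for COX7B and 0.07 (95% interval -0.40 to 0.55, adjusted p = 0.855) for COX8A.

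The isoforms that are made in few tissues were less even between biopsies than most subunits, and all but COX7A1 were dim. Their SD over the arrays was 1.17 for COX8B, 1.10 for NDUFA4L2, 0.81 for COX4I2, 0.60 for COX7A1 and 0.58 for COX6B2. The median over all tested probes was 0.61, and the dim isoforms were not compared with other probes of like level. COX7A1, the muscle isoform of COX7A2, had levels of 2.80, 2.76, 2.99 and 2.86 at day 10, 3.00, 2.97, 2.77 and 3.16 at day 30, 2.81, 2.34, 3.07 and 3.24 at day 50 and 0.89, 3.36, 3.66 and 2.72 at day 100, cows 1 to 4 in order. Cow 1 at day 100 stood below all 15 other arrays, and the second tested probe of COX7A1, which shares a run of 39 bases, read 0.88 there. COX4I2, known from lung and, in mouse, from pericytes, had -3.80, -3.82, -3.08 and -4.06 at day 10, -3.21, -3.65, -3.17 and -3.72 at day 30, -3.16, -3.81, -3.53 and -2.84 at day 50 and -6.01, -2.42, -4.60 and -3.62 at day 100. Cow 1 at day 100 was again the lowest of the 16 and cow 2 at day 100 the highest. On these arrays the smooth muscle markers stood at -3.56 and 2.21, the lowest and highest among all 16 arrays. The pericyte markers stood at -2.09, their lowest, and at 0.22, below the 0.61 of cow 4 at day 50. Stromal (-1.42) and endothelial (-1.32) markers were also at their lowest in cow 1 at day 100. COX7A1 was highest in cow 3 at day 100 (3.66), where the smooth muscle markers stood at -1.73. Whether the markers' cells set the isoform levels was not tested.

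NDUFA4L2, a relative of NDUFA4 that low oxygen induces, was dim with -1.29, -2.95, -1.80 and -0.74 at day 10, -3.33, -2.44, -1.18 and -3.27 at day 30, -0.99, -2.88, -0.50 and -0.47 at day 50 and -3.64, -2.73, -2.29 and -0.89 at day 100. In cows 1 and 4 it was more than 2 units lower at day 30 than at day 10, in cow 3 it was higher at day 30, and cow 2 stayed between -2.95 and -2.44. Its difference between day 30 and day 10 was -0.86 (95% interval -2.20 to 0.47, adjusted p = 0.547). COX8B, the muscle isoform of COX8A, had -2.46, -4.54, -4.24 and -3.93 at day 10, -4.19, -4.83, -4.09 and -4.87 at day 30, -3.86, -4.07, -2.74 and -2.79 at day 50 and -1.63, -4.97, -4.16 and -6.57 at day 100. Cow 1 at day 100 was the highest of the 16 arrays and cow 4 at day 100 the lowest. COX6B2, which is known from testis, ran from -3.35 to -0.86 with a median of -2.29. Between day 100 and day 10 the difference was -0.19 (95% interval -1.16 to 0.77, adjusted p = 0.807) for COX7A1, -0.47 (95% interval -1.76 to 0.82, adjusted p = 0.634) for COX4I2 and -0.54 (95% interval -2.08 to 1.01, adjusted p = 0.653) for COX8B. This COX8B probe lies at the edge of the array. Its second tested probe shares a run of 41 bases and lies in column 35, and gave 0.19 (95% interval -1.32 to 1.70, adjusted p = 0.883), of the opposite sign.

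Whether an isoform and its common counterpart changed alike was tested by permuting the 4 time labels within each cow, with 13824 distinct arrangements. The within-array difference of each pair had time means that spanned 1.44 for NDUFA4L2 and NDUFA4, 1.25 for COX8B and COX8A, 1.20 for COX4I2 and COX4I1, 0.56 for COX6B2 and COX6B1 and 0.55 for COX7A1 and COX7A2. Exact permutation p-values were 0.205, 0.272, 0.473, 0.794 and 0.894 in that order, and 0.681, 0.681, 0.789, 0.894 and 0.894 after Benjamini-Hochberg adjustment over the 5 pairs. Without cow 1 the adjusted exact permutation p for COX8B and COX8A was 0.035, so that call depends on 1 cow, and its cow 4 value at day 100 comes from the dim edge described below. Probes of an isoform and its counterpart share runs of at most 5 to 7 bases.

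**Figure D3:**
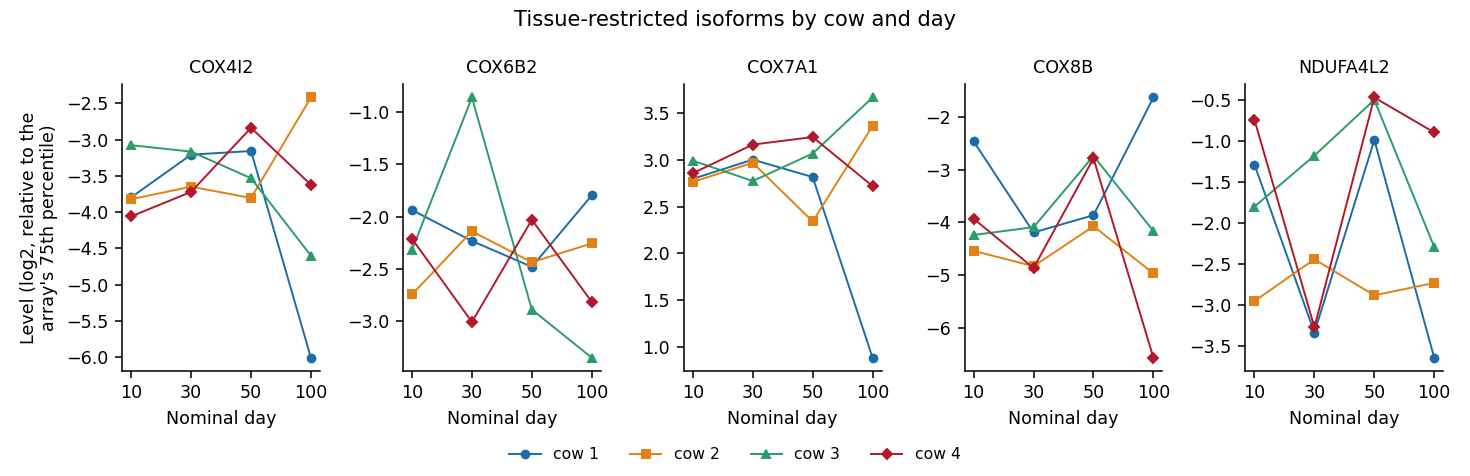
Levels (log2, relative to the percentile 75 of the array) of COX4I2, COX6B2, COX7A1, COX8B and NDUFA4L2 against nominal day, with a line per cow and a scale per gene. Cow 1 at day 100 is lowest for COX4I2, COX7A1 and NDUFA4L2 and highest for COX8B.

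In complex V, the ring of ATP5A1 and ATP5B, named ATP5F1A and ATP5F1B today, holds the catalytic sites. ATP5A1 had levels of 5.63 ± 0.19 at day 10, 5.78 ± 0.17 at day 30, 5.52 ± 0.18 at day 50 and 5.74 ± 0.25 at day 100 (SD, n = 4). ATP5B had 5.12 ± 0.10 at day 10, 5.21 ± 0.27 at day 30, 5.07 ± 0.27 at day 50 and 5.22 ± 0.28 at day 100. Between day 100 and day 10 the difference was 0.11 (95% interval -0.31 to 0.54, adjusted p = 0.745) for ATP5A1 and 0.10 (95% interval -0.39 to 0.60, adjusted p = 0.797) for ATP5B. Of the 15 complex V genes, 12 were higher and 3 lower at day 100 than at day 10, with a median of 0.11. The same genes showed 1 higher and 14 lower at day 50 than at day 30, with a median of -0.19 and 1 of 45 probes at an unadjusted p under 0.05, or 6 higher and 9 lower after quantile normalization. Between day 50 and day 30 cow 2 alone had a median of -0.63 over all 82 genes, against -0.04, 0.10 and 0.19 in cows 1, 3 and 4.

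Of the names that are no subunit, ATP5S, today DMAC2L, had the largest difference of all 82 genes for day 100 minus day 10. Its levels were -0.31, 0.02, -0.13 and -0.45 at day 10, 0.60, 0.53, 0.20 and 0.94 at day 30, 0.70, 1.42, 0.62 and -0.08 at day 50 and 0.24, 0.89, 1.86 and 1.16 at day 100. All 4 cows were higher at day 100, by 1.26 (95% interval 0.47 to 2.04, adjusted p = 0.0648), and the groups do not overlap. ATP5S passed in limma with normexp background correction (difference 1.27, adjusted p = 0.048, 2145 of all probes called). It also passed without the day 100 array of cow 1 (difference 1.52, adjusted p = 0.046, 1352 of all probes called). With probe position as a covariate, described below, the difference was 0.78 (adjusted p = 0.199), and the adjusted p ran from 0.046 to 0.269 over the alternatives. COX4NB, today EMC8, a subunit of a membrane insertion complex of the endoplasmic reticulum, had a difference of 0.19 (95% interval -0.27 to 0.64, adjusted p = 0.6).

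For 60 genes with 2 or more tested probes, the probes of a gene correlated across the 16 arrays with a median r of 0.695, over 0.7 for 30 genes and under 0.4 for 11. Probes at different places on the same transcript did not always move together. NDUFV1 was lower through its probe at base 586 in a few biopsies, with levels of -0.39, 0.11, -0.08 and -0.54 at day 10, -0.19, 0.26, -0.83 and -2.43 at day 30, -0.54, -0.58, -0.72 and -0.40 at day 50 and 0.39, -1.12, -3.25 and -1.16 at day 100. Cow 3 at day 100 and cow 4 at day 30 stood lowest, while the probe at base 1435 read 3.42 and 3.76 on the same 2 arrays, beside 3.42 to 4.63 over all 16 arrays. UQCRC1 showed the same pattern, with -2.74 and -2.66 on these arrays and -1.74 to 0.28 on the others through the probe at base 518. For SDHA, the probe at base 148 read -4.17 and -3.45, against -2.81 to -1.41 on the others. These upstream probes of NDUFV1, UQCRC1 and SDHA were singled out after their values were seen.

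The same 2 arrays stood apart over all genes. For 4263 RefSeq transcripts with 2 tested probes at least 500 bases apart, 12 of them members, the most upstream probe minus the most downstream one was set against its mean over the arrays. The median of this value was -0.54 in cow 3 at day 100, -0.41 in cow 4 at day 30, -0.29 in cow 2 at day 100 and -0.12 in cow 4 at day 100, and 0.03 to 0.21 on the other 12 arrays. It was below 0 on 3 of 4 day 100 arrays and on 0 of 4 day 10 arrays. Over the 12 members alone the median was -0.26 in cow 3 at day 100 and -0.26 in cow 4 at day 30. The labels give no RNA integrity value per sample, and the part of RNA quality in these values was not tested.

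UQCRC2 did not show low upstream values on these arrays: its probe at base 459 minus that at base 1531 deviated by 0.50 in cow 3 at day 100 and by 0.02 in cow 4 at day 30. A limma fit added after the data were seen took the array medians of upstream minus downstream signal as a covariate. There UQCRC2 at base 459 had a day 100 minus day 10 difference of 0.88 (adjusted p = 0.136, against 0.0636 without the covariate). The other tested UQCRC2 probes had adjusted p of 0.162, 0.203 and 0.217 in this fit. The difference was 0.78 for ATP5S and 1.07 for the minus-strand UQCRB probe. At an adjusted p under 0.05, 0 members were called, beside 834 of all probes for day 100 against day 10.

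**Figure D4:**
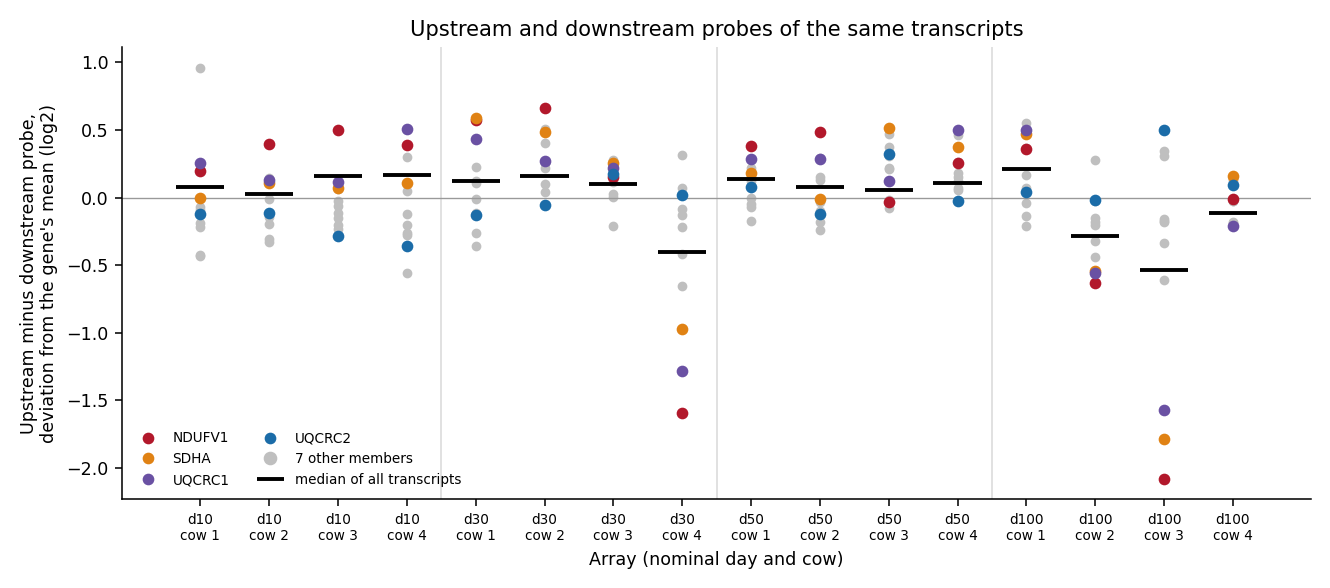
Most upstream minus most downstream probe of the same transcript, as the deviation from the gene's mean (log2, vertical axis), on the 16 arrays by nominal day and cow. Points are 11 members and black bars the median of 4263 transcripts; NDUFV1, SDHA and UQCRC1 lie far below 0 in cow 4 at day 30 and in cow 3 at day 100, while UQCRC2 lies above 0 there.

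Low values of NDUFS3, UQCRH, NDUFA5 and COX8B, of which NDUFA5 was singled out after its values were seen, in cow 4 at day 100 share a place on the array. NDUFS3, a core subunit of complex I, had 3.52, 3.34, 3.10 and 0.76 in cows 1 to 4 at day 100, against 3.04, 3.59, 3.27 and 2.82 at day 10. Its other probe, which shares a run of 25 bases and lies elsewhere on the array, read 2.61 in cow 4 at day 100 and 2.42 in cow 4 at day 10. UQCRH, the hinge protein of complex III and measured by 1 probe, had 4.37, 5.01, 4.42 and 1.61 at day 100, against 4.90, 4.92, 4.66 and 4.00 at day 10. All 4 genes' probes lie in column 85, the last column of spots. On that array the spots of column 85 had a median deviation of -1.33 over 338 tested probes and those of column 84 had -0.63, while columns 1 to 83 had a median of -0.01. On the other 15 arrays column 85 ran from -0.39 to 0.19. The last 2 columns of the day 100 array of cow 4 were then left out, a choice made after the data were seen. In that limma fit 0 members were called in any comparison, beside 1516 of all probes for day 100 against day 10. The UQCRC2 probe at base 763, printed above, lies in column 84. Its day 100 minus day 10 difference was 0.85 in that fit (limma adjusted p = 0.0897), against 0.84 (adjusted p = 0.0706) with all columns.

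**Figure D5:**
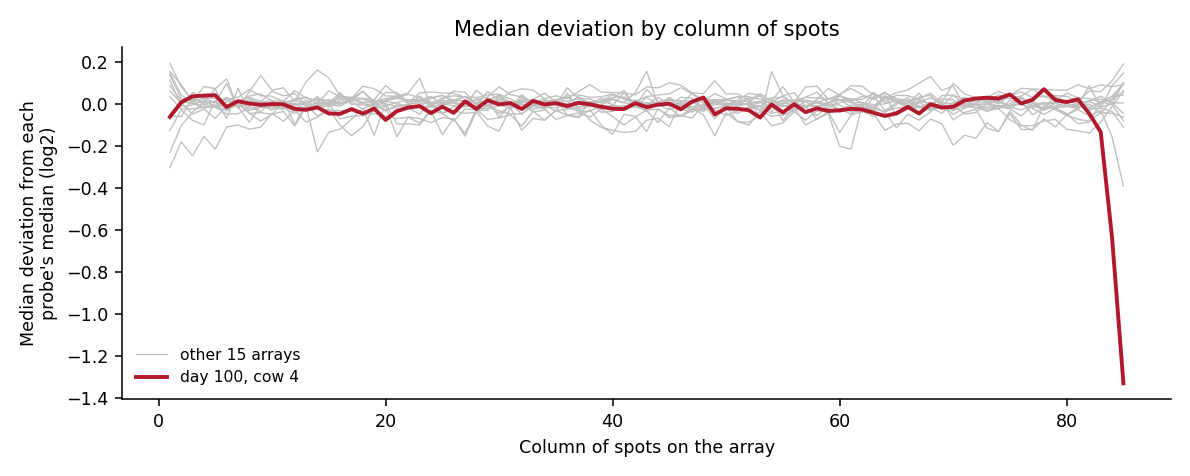
Median deviation of the tested probes in each column of spots from their medians over the arrays (log2, vertical axis) against the column number. The day 100 array of cow 4 (red) drops to -0.63 in column 84 and -1.33 in column 85, and the 15 other arrays (grey) stay between -0.39 and 0.19 in column 85.

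Few genes that serve the chain were called. At an adjusted p under 0.05 in limma, 0 of 16 tested genes for electron carriers and feeder enzymes, 0 of 15 for regulators of mitochondrial biogenesis, 0 of 14 for the citric acid cycle and 0 of 16 for glycolysis passed in any comparison. Of 39 assembly factors, SDHAF3, which helps to mature SDHB, fell by 1.05 ± 0.23 at day 50 relative to day 10 (SE, adjusted p = 0.047, 4 of 4 cows), beside 1.64% of all probes called in that comparison. COX18, which inserts a complex IV subunit into the membrane, was higher at day 100 than at day 10 by 1.56 ± 0.37 (SE, adjusted p = 0.040, 4 of 4 cows), beside 4.60% of all probes called. Its 1 tested probe was dim and well above background on 15 arrays. It read -5.50, -4.85, -4.81 and -5.17 at day 10 and -2.32, -4.06, -3.89 and -3.83 at day 100, cows 1 to 4 in order. Of 77 genes of the mitochondrial ribosome, which makes the subunits encoded in mitochondrial DNA, MRPS36, a protein named as a ribosome subunit, was higher at day 50 than at day 10 by 3.10 ± 0.66 (adjusted p = 0.043) and MRPL19 at day 100 than at day 10 by 1.34 ± 0.32 (adjusted p = 0.042, SE). MRPS36 was higher in 4 of 4 cows. MRPL19 was called through 1 of 3 probes and was higher in cows 1, 3 and 4, while cow 2 had 1.29 at both times.

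Among the lists of cell type markers, that of macrophages had the most genes called. Markers of macrophages, the cells that clear debris, averaged 1.70 ± 0.69 at day 10, -0.67 ± 0.72 at day 30, -0.31 ± 0.98 at day 50 and -0.73 ± 0.67 at day 100 (deviation in log2, SD, n = 4). Of 8 macrophage markers, 5, 5 and 8 were called lower than at day 10 on days 30, 50 and 100, beside 0.419%, 1.64% and 4.60% of all probes called in either direction. Of the other marker lists, smooth muscle, epithelium, pericyte, endothelium and B and plasma cells had 0 genes called in any comparison, and stroma, neutrophils, T cells and ciliated epithelium had 1 each. The 80-gene median of the subunits at the same times ran from -0.06 to 0.07.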

How the data were processed

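Total RNA of 16 endometrial biopsies from 4 cows was labelled with Cy3 and hybridised to one-colour Agilent arrays, per the labels' protocols. The deposited scanner files give intensity values for 45220 spots per array, background-subtracted and detrended by Agilent Feature Extraction 11.5.1.1, per the file headers, while the submitters' processing notes name version 10.5.1.1. The authors also deposited a table of log2 values, which correlated with the levels used here at r of 0.99985 or more on every array and had column medians of -0.155 to 0.215. It served as an alternative.

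Control spots (1417) and spots marked nonuniform (4 to 125 per array) were left out, and the percentile 75 of each array was subtracted from the log2 processed signal. Probes well above background on at least 4 arrays were tested, which kept 33182 of 43653. A linear model of time, with the cow as a block, was fitted per probe (limma 3.58.1, R 4.3.3), with Benjamini-Hochberg adjustment over all tested probes at a threshold of 0.05, and every adjusted p in the text is from this fit unless said otherwise. The 95% intervals are those of limma's moderated statistic. Cow equals slide and scan time, so the block for the cow also removes the slide. Within a cow the arrays' deviations from the time means correlated with a median r of 0.125 (24 pairs), against -0.040 between cows (72 pairs). The numbers pair the arrays because they mark the same animal. Permutation tests and summaries used Python 3.11.15 with numpy 2.4.6, scipy 1.17.1 and pandas 2.3.3. The fit and the pair test were tested on simulated data. The number of arrays, 4 per time, limits the precision.

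The members, the gene lists and the tests were chosen with earlier results of these data known. Genes are named with values if they had a probe past the threshold, were among the 10 with the widest range of time means, are isoforms of restricted tissue range or their counterparts, or are core subunits; others are said to be chosen after their values were seen. A gene that the rule names is not reported here. Current symbols come from the RefSeq gene table of ARS-UCD2.0 and were found by accession for 164 member probes. Alternatives changed the background correction, the scaling, the filter, the block, the covariates, the membership and the arrays included.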

Additional observations from a re-analysis of the deposited data

Results flagged for a closer look

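In 6 of 148 sets of 4 arrays, or 4.05%, 1 array stood far from the other 3 by the gap between neighbours over the range of the set, and chance gives about 5%. Of these 6, 5 are the biopsy of cow 2 at day 30. There UQCRC2 stood at 3.93, against 3.57 to 3.61 in the other cows, UQCR10 at 3.94, against 3.39 to 3.47, and ATP5A1 at 6.04, against 5.68 to 5.72. The median deviation of complex I was 0.33 there, against -0.09 to -0.07, and that of complex IV was 0.20, against -0.10 to -0.08. NDUFS3 at day 100 stood at 0.76 in cow 4, against 3.10 to 3.52 in the other cows. That spot lies in the dim last column of spots of the array.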

How the results depend on the processing

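Under all alternatives run, the count of member probes called was 0 in the comparisons other than day 100 against day 10. It was also 0 in the test over all times. Over all probes these alternatives called 4 to 217 for day 30 against day 10 and 21 to 966 for day 50 against day 10. They called 17 to 1168 in the test over all times. Among days 30, 50 and 100 they called 0 to 112, and 0 under most alternatives, so a count of 0 members was close to fixed there. For day 100 against day 10 the count of member probes called was 2 with normexp background correction, where 2145 of all probes were called. They were ATP5S (adjusted p = 0.048) and a dim probe of NDUFA7, singled out after its values were seen (adjusted p = 0.041). After quantile normalization, with 1469 of all probes called, it was 1, the same NDUFA7 probe (adjusted p = 0.043). When single arrays or cows were left out, the calls over all probes ran from 73 to 3113, against 1525 with all arrays. The member probes called numbered 0 to 2. Without the day 100 array of cow 1 ATP5S was among them, without the day 100 array of cow 2 both were UQCRC2 probes, without cow 2 it was 1 UQCRC2 probe, and without the day 30 array of cow 4 it was the minus-strand UQCRB probe. With no replicate block for the cow the member count was 0, and so it was in the other fits. These include the tissue covariates, both filters, the authors' table, current symbols, the position covariate and the fit without the last 2 columns. The last pair was added after the data were seen. Over all probes these fits called from 44 to 2552 for day 100 against day 10. The median difference of members for day 100 minus day 10 was 0.32 with median scaling, which moved the median of all probes by 0.24; normexp moved that by 0.30. For COX8B minus COX8A the adjusted exact permutation p ran from 0.035 to 0.922 when single cows were left out. Over 30 settings, 5754 values of 32 named genes, each through its brightest probe only, were recomputed and 2 passed the threshold, both for ATP5S. The UQCRC2 calls given above came from other probes of that gene and are not in this count. The causes were not tested. With 4 arrays per time, a difference below 1.5-fold is bounded for few genes.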
